A study of Mus musculus with 6 samples.

Results

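The 31 genes described here encode the machinery that copies DNA and the factors that start S phase, the part of the cell cycle in which DNA is copied. They were listed by name and matched by symbol to the Ensembl identifiers of the count tables. All 31 were found among 25006 identifiers, and all 31 had enough reads to be tested. Total RNA came from cultured mouse cells of the ovarian surface epithelium (MOSE), the layer that covers the ovary. How it was selected for sequencing is not given. MOSE-NEO is the reference line, and MOSE-PAX8 is the line that overexpresses PAX8, a paired-box transcription factor of thyroid, kidney and Mullerian duct development. Both lines were kept under G418 (0.05 mg/mL), with 3 libraries each and 1 cell line named per group. The sources used here do not say whether a line is 1 clone or which promoter drives Pax8. They also do not say if each library had its own culture, and p-values then measure only how these libraries vary, perhaps for technical reasons.

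Before S phase, the origin recognition complex, Cdc6 and Cdt1 load rings of Mcm2 to Mcm7 onto DNA. The rings become active helicases when Cdc45 and the GINS complex join them, and polymerases, the sliding clamp Pcna and its loader then build the new strands, which chromatin assembly factors wrap in histones. E2F transcription factors switch on many of these genes once cyclin-dependent kinases have inactivated the RB proteins, and Cdkn1a is an inhibitor of those kinases. The comparison of MOSE-PAX8 with MOSE-NEO asks how this set of genes differs in a line that overexpresses PAX8.

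Library totals ran from 23623762 to 36367825 counts. Counts of Pax8 were 0, 1 and 1 in MOSE-NEO but 2570, 2973 and 3544 in MOSE-PAX8, which fits the labels. The summed level of 14 surface epithelium and mesothelium markers was 15010 to 16640 CPM (depth-scaled counts, with TMM factors) in MOSE-NEO and 8782 to 10230 CPM in MOSE-PAX8. Of these markers Krt8 and Krt19 were under 1 CPM in the mean of both lines. Most of the markers called were lower: Aldh1a2, Wt1, Krt7, Krt8, Podxl, Upk3b, Upk1b and Lrrn4. Cdh2 and Nr2f2 were called higher, and Krt18, Krt19, Msln and Gata4 were not called. Aldh1a2 fell from a mean of 42 to 0.0103 CPM, while Cdh2 rose from 113.6 to 289.5 CPM. Endothelial markers summed to at most 1.03 CPM, with Cdh5 at 0. Leukocyte markers summed to between 8.89 and 16.9 CPM, with Adgre1 at 0, while Ptprc was at 0.0111 and 1.95 CPM in the MOSE-NEO and MOSE-PAX8 means. The most abundant of them, Csf1r, was at 10.55 and 4.2 CPM and was called lower. Among 8 granulosa and theca markers, Fshr, Cyp19a1 and Lhcgr were at 0 and the sum was 374 to 541 CPM, nearly all from Star. Star and Inha were called lower, while Foxl2 rose from 0.0145 to 1.81 CPM and was called higher. Markers of stromal fibroblasts summed to 3851 to 4448 and 3287 to 3501 CPM, mostly from Col1a1 and Dcn, which were not called. Thy1 fell from 52.4 to 2.77 CPM and was called lower. The part of these markers in the results was not tested. Genes annotated as lincRNA took 0.317% of counts in MOSE-NEO library 1 and 0.33% in MOSE-PAX8 library 2, while the other 4 libraries had 0.146% to 0.195%.

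Replication and S-phase genes were modestly higher in MOSE-PAX8. All 31 members had a log2 fold change above 0, from 0.15 (Slbp) to 0.74 (E2f2), with a median of 0.30, or 1.23-fold. By edgeR's quasi-likelihood test, adjusted over all 12313 genes tested, 18 of 31 rose at an adjusted p below 0.05 and 0 fell. Over all genes, 17.9% were called higher and 16.1% lower, the median log2 fold change was 0.01 and 51.1% of values lay above 0. The 3 MOSE-PAX8 libraries lay wholly above the 3 MOSE-NEO libraries for 24 of 31 members, against 25.3% of all genes tested. Tested against a minimum fold of 1.5 (edgeR's glmTreat), 0 members were called and 0 had an unadjusted p below 0.05. Of all 12313 genes, 700 were called higher and 370 lower in that test, so calls were few in general. The estimates of E2f2, Fen1 and Chaf1a lay above that fold and those of the other 28 below it. These are bulk cultures, in which a larger share of cells in S phase and more of each RNA per cell cannot be told apart.

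**Figure D1:**
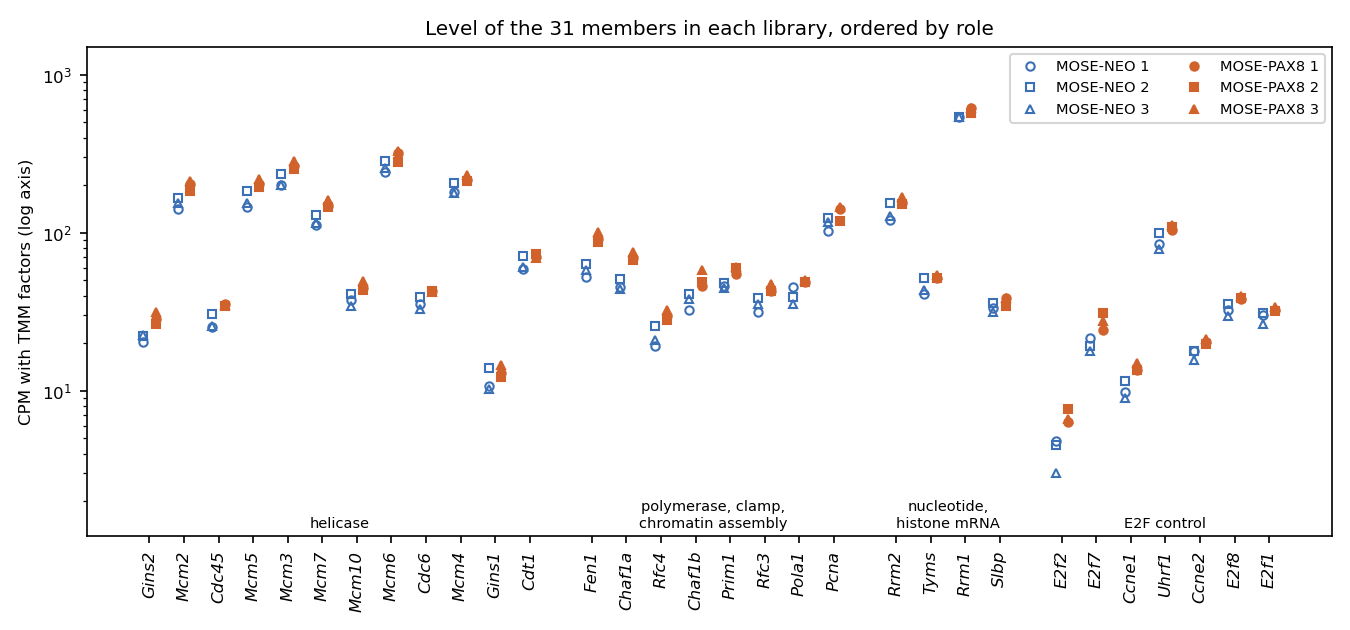
CPM of each member (log axis) in the 3 MOSE-NEO libraries (open blue) and the 3 MOSE-PAX8 libraries (filled orange), with marker shape giving the library number and genes ordered by role. Rrm1 has the highest values, from 537 to 615 CPM, and E2f2 the lowest, from 3.02 to 7.67 CPM.

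The members also varied together from library to library within a line. MOSE-NEO library 2 was the highest of its line for 25 of 31 members and for 30.8% of all genes. MOSE-PAX8 library 3 was the highest of its line for 24 of 31 members and for 31.5% of all genes. MOSE-PAX8 library 2, one of the lincRNA-rich libraries, was the lowest for 21 of 31 members and for 41.5% of all genes. The median of the members, relative to the MOSE-NEO mean on the log2 scale, was -0.08, 0.13 and -0.08 in MOSE-NEO libraries 1 to 3 and 0.29, 0.26 and 0.36 in MOSE-PAX8 libraries 1 to 3. So the groups did not overlap in this median, and the largest gap within MOSE-NEO was larger than the gap between its highest library and the lowest of MOSE-PAX8. The same median over all genes stayed between -0.01 and 0.03.

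**Figure D2:**
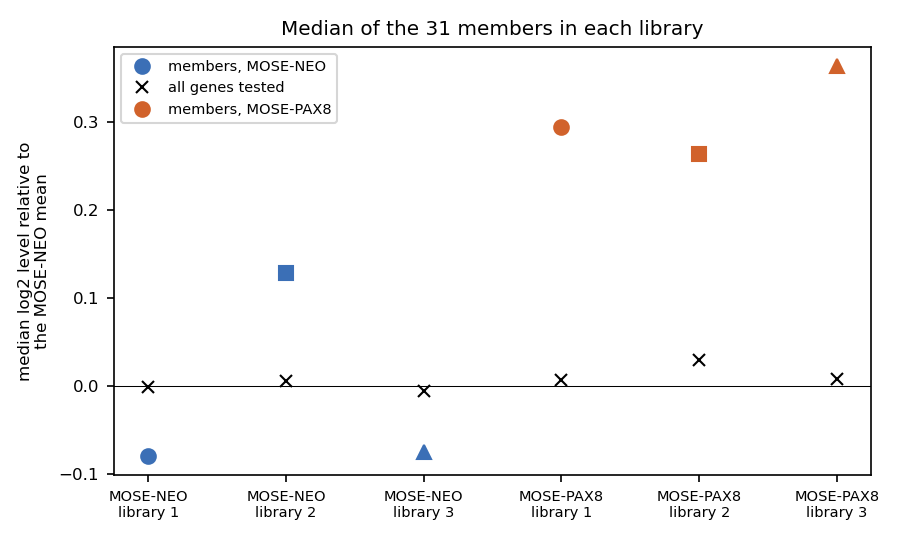
Median over the 31 members of the log2 level relative to the MOSE-NEO mean, in each of the 6 libraries (circle, square and triangle for libraries 1, 2 and 3), with the median of all genes tested as crosses. The members sit at 0.13 or below in MOSE-NEO and at 0.26 or above in MOSE-PAX8, while the crosses stay near 0.

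The number of members called changed when single libraries were left out. It was 6 without MOSE-PAX8 library 3, 12 without library 1 and 17 without library 2 of that line. It was 13 without MOSE-NEO library 1 or without library 3, and 22 without library 2. With both lincRNA-rich libraries left out it was 11. In each of these fits all 31 members stayed above 0, and the median ranged from 0.26 to 0.36. Fen1, Chaf1a, Gins2, Prim1 and E2f7 kept their call in every one of them. Calls over all genes also changed. With all libraries 2199 genes were called higher, and with 1 library left out 1545 to 2065. The low of 1545 came without MOSE-PAX8 library 3, the fit with 6 members called. That 6 of 31 is therefore not comparable with the 17.9% of all genes in the main fit. Whether members lost calls more readily than other genes was not tested. In the mm10 build (GENCODE M21), Fen1 lies at chr19:10199132-10204169, Chaf1a at chr17:56040439-56072289, Gins2 at chr8:120578633-120589304, Prim1 at chr10:128015168-128030037 and E2f7 at chr10:110745439-110787384.

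**Figure D3:**
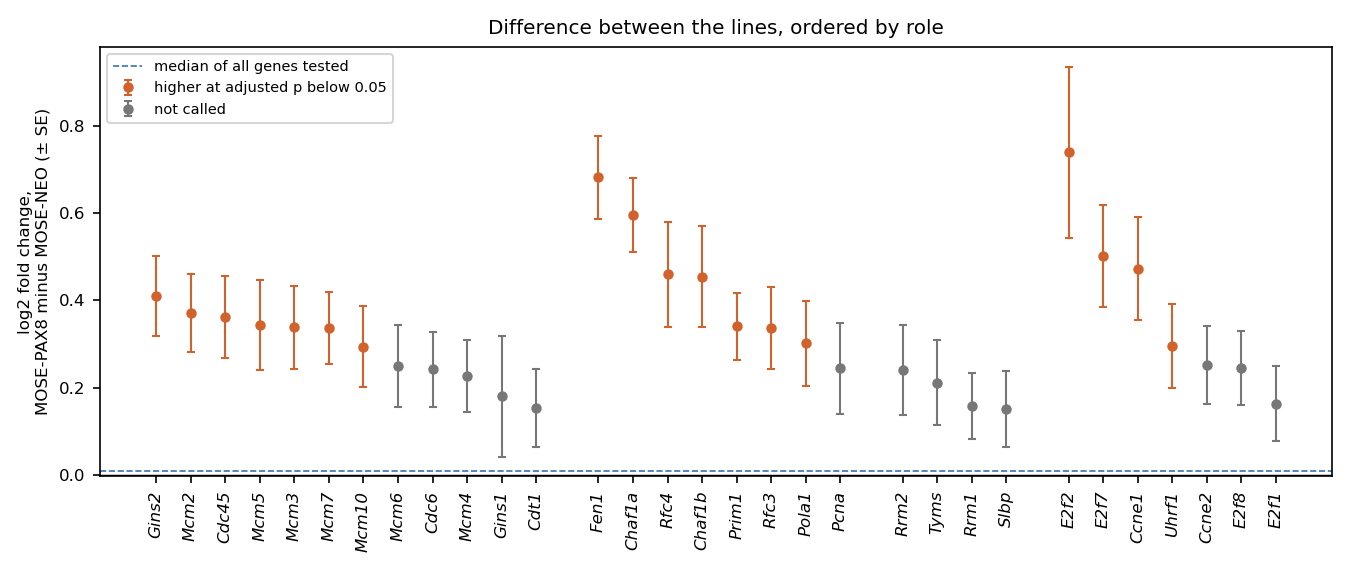
Log2 fold change of MOSE-PAX8 over MOSE-NEO for each member with its standard error, ordered by role, with members called higher in orange, the others in grey and the median of all genes as a dashed line. All 31 points lie above 0, and the members of the nucleotide and histone mRNA group are all grey.

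Among the 12 genes that load and activate the helicase, 7 rose (58.3%) and 0 fell, with a median of 0.32 on the log2 scale. Over all genes tested, 17.9% were called higher and 16.1% lower. Gins2, a subunit of GINS, had 20.4, 22.3 and 22.4 CPM in MOSE-NEO and 28.5, 26.6 and 31.4 CPM in MOSE-PAX8. The 2 groups did not overlap, and the log2 fold change was 0.41 ± 0.09 (SE, edgeR adjusted p = 0.00873). Mcm2, a ring subunit, had 142, 166 and 155 CPM against 203, 185 and 211 CPM, all above MOSE-NEO, a rise of 1.29-fold (edgeR adjusted p = 0.012). Mcm7 rose 1.26-fold, from 113, 129 and 116 CPM to 147, 145 and 160 CPM (edgeR adjusted p = 0.0137). Cdc45, the factor that joins the ring together with GINS, had 25.2, 30.6 and 25.6 CPM against 35.3, 34.3 and 34.9 CPM (1.28-fold, edgeR adjusted p = 0.017).

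Mcm3 (1.26-fold), Mcm5 (1.27-fold) and Mcm10 (1.23-fold), which helps to activate the helicase, were called at adjusted p from 0.0242 to 0.0387. In each of these 3 genes the highest MOSE-NEO library was library 2, at 237, 185 and 41.1 CPM, below the lowest MOSE-PAX8 library at 253, 194 and 43.7 CPM. The other 2 ring subunits were not called: Mcm4 had 1.17-fold and Mcm6 1.19-fold (edgeR adjusted p = 0.0661 and 0.0717). Mcm6 overlapped, since MOSE-NEO library 2 at 283 CPM lay above MOSE-PAX8 library 2 at 282 CPM. The loading factors Cdc6 and Cdt1 and the GINS subunit Gins1 had log2 fold changes of 0.24, 0.15 and 0.18, with edgeR adjusted p of 0.0575, 0.224 and 0.359. Cdt1 and Gins1 overlapped between the lines and Cdc6 did not.

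Without MOSE-PAX8 library 3, the calls of Mcm2, Mcm7, Cdc45, Mcm3, Mcm5 and Mcm10 ended (edgeR adjusted p = 0.0597, 0.0685, 0.0576, 0.105, 0.124 and 0.155). Mcm3, Mcm5 and Mcm10 also lost theirs without MOSE-NEO library 1 (0.0636, 0.0807 and 0.0749), MOSE-NEO library 3 (0.0672, 0.0794 and 0.103) or MOSE-PAX8 library 1 (0.0612, 0.0752 and 0.0755), and Cdc45 without MOSE-PAX8 library 1 (0.0534).

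Set per kilobase of exon, so that genes can be compared, the 6 ring subunits had mean levels of 22.2 (Mcm2) to 56.6 (Mcm3) CPM per kilobase in MOSE-NEO. The factors that load or activate the ring were scarcer: Cdt1 had 20.3 CPM per kilobase, Cdc45 7.74, Gins1 7.7, Cdc6 6.88, Gins2 5.29 and Mcm10 4.89. Exon lengths are those of all annotated isoforms together, so these levels are approximate.

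Genes for strand synthesis and chromatin assembly had the highest share of calls of the 4 roles. Here 7 of 8 rose (87.5%, against 17.9% of all genes) and 0 fell (against 16.1%). Their median log2 fold change was 0.40. Fen1, the nuclease that trims the flaps of lagging-strand fragments, had 52.4, 63.9 and 57.9 CPM in MOSE-NEO and 90.9, 87.5 and 100.8 CPM in MOSE-PAX8. Its lowest MOSE-PAX8 library was well above its highest MOSE-NEO library, and the rise was 1.6-fold (log2 fold change 0.68 ± 0.09 SE, edgeR adjusted p = 0.000845). Chaf1a, the large subunit of chromatin assembly factor 1, had 45.3, 50.8 and 44.1 CPM against 69.2, 66.9 and 75.6 CPM (1.51-fold, log2 fold change 0.60 ± 0.08 SE, edgeR adjusted p = 0.000975). The partner subunit Chaf1b rose 1.37-fold, from 32.6, 40.9 and 38.3 CPM to 46.1, 49 and 57.9 CPM (edgeR adjusted p = 0.016).

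Prim1, the subunit of primase that makes the RNA primer, had 46, 47.9 and 44.8 CPM against 54.5, 60.2 and 61 CPM, with a narrow spread in MOSE-NEO and a rise of 1.27-fold (edgeR adjusted p = 0.00883). The clamp loader genes Rfc4 and Rfc3 rose 1.38-fold and 1.26-fold (edgeR adjusted p = 0.0184 and 0.0235). Pola1, the catalytic subunit of polymerase alpha, rose 1.23-fold, with 45.4 CPM as its highest MOSE-NEO value and 48.8 CPM as its lowest MOSE-PAX8 value (edgeR adjusted p = 0.0432). The clamp gene Pcna was the one member of this group not called, at 103, 124 and 117 CPM against 142, 119 and 145 CPM (edgeR adjusted p = 0.108). MOSE-PAX8 library 2 lay inside the MOSE-NEO range there, and without that library Pcna was called (adjusted p = 0.0322).

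Without MOSE-PAX8 library 3, Chaf1b, Rfc3, Rfc4 and Pola1 lost their calls (edgeR adjusted p = 0.0649, 0.101, 0.0727 and 0.126), and Rfc3 did so without MOSE-NEO library 1 (0.0564). Pola1 also lost its call without MOSE-NEO library 2 (0.11) or 3 (0.115) and without MOSE-PAX8 library 1 (0.0931) or 2 (0.0694).

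Several of these genes share their exons with a gene on the opposite strand, and the strand setting of the counting is not given in the sources used here. The shared part was 84.2% of the exon bases of Fen1, 67.3% of those of Gins2 (with Gse1) and 52.5% of those of Chaf1a (with Ubxn6). For Fen1 the antisense gene Gm10143, which was not analysed here, made up 78.8% and Tmem258 5.37%. Ubxn6 had 61.7 and 66.9 CPM in the MOSE-NEO and MOSE-PAX8 means and was not called. Gse1 fell from 84.2 to 63.4 CPM (edgeR adjusted p = 0.0164), opposite to Gins2. Among the members not called, Ccne2 shared 17.4% of its exon bases with Ints8 and E2f8 11.2% with Gm2788, and the called Rfc4 shared 12.7% with Eif4a2. Mcm7, Cdc6, Pcna, Rrm2, Tyms and Uhrf1 have at least 1 other gene or pseudogene with a stretch of 300 or more bases at 95% identity or more, so their counts depend on how reads with several alignments were treated, which is not given either.

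Genes of nucleotide and histone mRNA supply had 0 calls among 4, with a median log2 fold change of 0.19. The shares over all genes were 17.9% higher and 16.1% lower. At an unadjusted p below 0.05 there was 1, Rrm2, and DESeq2 and limma-voom also called 0 of them. Rrm1 and Rrm2 encode the subunits of ribonucleotide reductase, which makes deoxyribonucleotides. Rrm1 was the most abundant member, with 538, 537 and 544 CPM in MOSE-NEO and 615, 576 and 615 CPM in MOSE-PAX8. Its groups did not overlap, but the difference of 1.12-fold was not called (log2 fold change 0.16 ± 0.08 SE, edgeR adjusted p = 0.142). Rrm2 had 121, 155 and 128 CPM against 155, 153 and 169 CPM, so MOSE-NEO library 2 reached the MOSE-PAX8 values (1.18-fold, edgeR adjusted p = 0.111). Tyms, thymidylate synthase, also overlapped (1.16-fold, edgeR adjusted p = 0.132), as did Slbp, which binds the stem-loop of histone mRNAs (1.11-fold, edgeR adjusted p = 0.222). Without MOSE-NEO library 2, Rrm2 and Tyms were called higher (0.0269 and 0.0301).

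Rrm1 and Rrm2 lie on chromosomes 7 and 12, in stretches where the median log2 fold change of the nearest tested genes was 0.24 each. With that local median removed, their log2 fold changes were -0.08 and 0.00, and these were the 2 of 31 members then below 0. E2f8 and Ccne1, also on chromosome 7, had local medians of 0.21 and 0.15, and Fen1 on chromosome 19 had 0.17. Removing it left Fen1 called (log2 fold change 0.51, edgeR adjusted p = 0.0044) and ended the calls of Ccne1, Rfc3 and Pola1 (0.0799, 0.0742 and 0.0889). Cdc6, E2f1 and Mcm6 were called instead, so the count stayed at 18, of which 15 were shared.

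Of the 7 genes of E2F control, 4 rose (57.1%, against 17.9% of all genes) and 0 fell (against 16.1%). The MOSE-PAX8 libraries lay wholly above those of MOSE-NEO for all 7, against 25.3% of all genes. E2f2, an activator of the family, had the largest change of all members but the lowest level, with 4.8, 4.52 and 3.02 CPM against 6.32, 7.67 and 6.6 CPM. The rise was 1.67-fold with a wide error (log2 fold change 0.74 ± 0.20 SE, edgeR adjusted p = 0.0195). E2f7, an atypical family member that represses transcription, rose 1.42-fold, from 21.6, 19.3 and 17.7 CPM to 24.3, 31.2 and 27.5 CPM (edgeR adjusted p = 0.0108). Its close relative E2f8 and the activator E2f1 were not called, at 1.19-fold and 1.12-fold (edgeR adjusted p = 0.0561 and 0.182). E2f1 had 30, 31.2 and 26.5 CPM against 32.6, 31.9 and 33.7 CPM, barely apart.

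Ccne1 and Ccne2 encode the E cyclins, partners of Cdk2 at S-phase entry. Ccne1 rose 1.39-fold, from 9.79, 11.5 and 9.03 CPM to 13.4, 13.6 and 15 CPM (edgeR adjusted p = 0.0151), whereas Ccne2 had 1.19-fold (edgeR adjusted p = 0.0603). Uhrf1, which reads hemimethylated DNA behind the fork and brings in the maintenance methyltransferase, rose 1.23-fold, from 84.6, 100 and 79.1 CPM to 104, 108 and 111 CPM (edgeR adjusted p = 0.0435). Ccne1 lost its call without MOSE-PAX8 library 3 (edgeR adjusted p = 0.067) and E2f2 without MOSE-PAX8 library 2 (0.0516). Uhrf1 lost its call whenever a library other than MOSE-NEO 2 was left out, at adjusted p of 0.101 and 0.118 without MOSE-NEO 1 and 3 and of 0.0766, 0.075 and 0.138 without MOSE-PAX8 1, 2 and 3.

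The promoters of the members were searched for binding words. No word was used in choosing the members, but many of them are genes that E2F factors switch on. A high share of E2F words was therefore likely from the outset, and the share over all genes includes genes not tested here. Windows from 250 bases before to 50 bases after each transcription start were taken from RefSeq (GRCm38.p6, the same build as mm10), which held 31 windows for 27 members. An E2F match here is any of the words TTTCCCGC, TTTGGCGC, TTTCGCGC or TTTGCCGC on either strand. At least 1 such word stood in the windows of 11 of 27 members, or 40.7% (95% Wilson interval 24.5% to 59.3%), against 2.6% of all 27025 genes of the table. Counting only the part before the start, the shares were 29.6% and 2.2%. Of members called higher, 8 of 17 held one, and of those not called, 3 of 10. Dropping the leading T of each word gave a match for 70.4% of members and 10.9% of all genes.

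CCAAT, the word bound by the factor NF-Y, stood in the windows of 70.4% of members and of 41.1% of all genes. The CHR word TTTGAA was in 18.5% and 20.2%, and the SP1 word GGGCGG in 77.8% and 38.2%, on both strands in each case. A match is a run of letters and not a bound site.

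**Figure D4:**
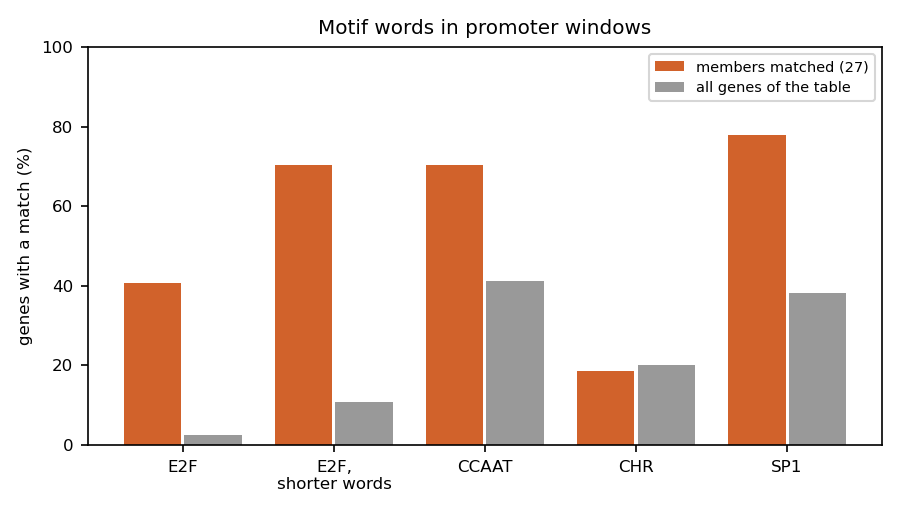
Percentage of genes whose promoter window (250 bases before to 50 after the start) holds each motif word on either strand, for the 27 members matched (orange) and all genes of the RefSeq table (grey). The E2F words stand in 40.7% of members and 2.6% of all genes, and the CHR word in 18.5% and 20.2%.

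Below are stretches before the start of 4 called members, chosen as those with an E2F word before the start in a part free of annotated exons, ordered by log2 fold change. They run 5′ to 3′ on the strand of the gene, with the E2F words in capitals. E2f7 lies at chr10:110745221-110745438 (plus strand), Mcm5 at chr8:75109336-75109508 (plus), Pola1 at chrX:93632156-93632313 (minus) and Uhrf1 at chr17:56304108-56304312 (plus). The Mcm5 stretch holds 2 words that overlap, on opposite strands, and the other 3 stretches hold 1 each. The Uhrf1 stretch lies inside the annotated gene (chr17:56303321-56323486), before a further start. The window at the 5′ end of Uhrf1 held 0 E2F words.
E2f7: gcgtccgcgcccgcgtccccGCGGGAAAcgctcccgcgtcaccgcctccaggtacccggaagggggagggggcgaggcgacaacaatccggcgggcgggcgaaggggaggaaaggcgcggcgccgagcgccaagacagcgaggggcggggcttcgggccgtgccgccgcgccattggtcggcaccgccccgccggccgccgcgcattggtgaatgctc
Mcm5: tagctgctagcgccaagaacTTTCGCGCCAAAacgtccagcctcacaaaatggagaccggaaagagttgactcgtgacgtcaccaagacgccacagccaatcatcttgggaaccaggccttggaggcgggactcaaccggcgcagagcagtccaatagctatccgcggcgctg
Pola1: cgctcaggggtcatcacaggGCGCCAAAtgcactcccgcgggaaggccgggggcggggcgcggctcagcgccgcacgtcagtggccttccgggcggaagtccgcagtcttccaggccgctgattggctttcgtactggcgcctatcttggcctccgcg
Uhrf1: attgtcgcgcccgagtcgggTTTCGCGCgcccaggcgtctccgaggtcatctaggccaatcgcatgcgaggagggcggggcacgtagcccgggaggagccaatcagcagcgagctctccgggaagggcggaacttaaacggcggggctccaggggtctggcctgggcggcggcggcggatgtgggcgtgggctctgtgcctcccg

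The strongest riser by test, Fen1, held no E2F word in either of its 2 windows, nor did Chaf1a in its own. Mcm6, which was not called, held 3.

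Other genes of replication were called higher in part. Among 19 genes of origin recognition and licensing control 8 rose (42.1%), 0 fell and 11 were not called, with a median log2 fold change of 0.28. The shares over all genes were 17.9% and 16.1%. Orc5, a subunit of the origin recognition complex, rose 1.38-fold from 43.8 ± 2.54 to 60.6 ± 3.56 CPM (SD, n = 3, edgeR adjusted p = 0.00248), and Mcm8, a helicase of the Mcm protein family, 1.35-fold. Mcmbp, a partner of the Mcm proteins, rose 1.33-fold, but lies on chromosome 7 and lost its call with the local median of 0.29 removed (edgeR adjusted p = 0.223). Orc1 had 1.27-fold (edgeR adjusted p = 0.0501). Gmnn, the inhibitor of Cdt1, had 28.5 ± 4.06 and 32.8 ± 1.43 CPM (SD, n = 3, edgeR adjusted p = 0.201).

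Of 34 further polymerase, clamp loader and fork genes, 11 rose (32.4%), 1 fell (2.94%) and 22 were not called, with a median of 0.23. The shares over all genes were 17.9% and 16.1%. Lig1, the ligase that seals lagging-strand fragments, rose 1.94-fold, from 40.7, 44.6 and 41 CPM to 79, 78.3 and 87.1 CPM (edgeR adjusted p = 5.44e-05). It lies in a part of chromosome 7 whose local median was 0.75. With that removed its log2 fold change was 0.20 and the call ended (edgeR adjusted p = 0.0862). Rfc5 and Pola2, partners of the members Rfc3 and Rfc4 and of Pola1, rose 1.43-fold and 1.31-fold (edgeR adjusted p = 0.00274 and 0.00489). Supt16, a histone chaperone subunit on chromosome 14, fell from 123 ± 4.72 to 101.2 ± 2.74 CPM (SD, n = 3, edgeR adjusted p = 0.0134). Its log2 fold change of -0.28 turned to 0.15 with the local median of -0.43 removed (edgeR adjusted p = 0.151), and its call also ended without MOSE-PAX8 library 3 (0.0508).

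In the wider nucleotide synthesis list 12 of 28 rose (42.9%, against 17.9% of all genes) and 0 fell (against 16.1%). Of the 3 nucleotide enzymes among the members, 0 were called. Whether these shares differ was not tested. Shmt1 and Shmt2, which feed carbon units into thymidylate and purine synthesis, rose 1.7-fold and 1.73-fold (edgeR adjusted p = 0.000597 and 0.00288), and Ppat, the entry enzyme of purine synthesis, 1.32-fold. Tk1, the thymidine kinase of S phase, had 50.9 ± 6.42 and 48.8 ± 3.16 CPM (SD, n = 3, edgeR adjusted p = 0.705). The count of 12 was 6 without MOSE-NEO library 1 or MOSE-PAX8 library 1 and 5 without MOSE-PAX8 library 3. The list also holds Tfrc (1.53-fold higher), the transferrin receptor, which brings in iron and is no nucleotide enzyme.

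In the list of E2F, RB and G1/S kinase genes, 7 of 30 tested rose (23.3%) and 6 fell (20%), with a median of 0.04. These shares are near the 17.9% and 16.1% over all genes. Cdkn1a fell 4.29-fold, from 139, 163 and 167 CPM to 36.4, 34.7 and 38.3 CPM (edgeR adjusted p = 2.31e-06), with a wide gap between the lines. Myc, a growth-promoting transcription factor, rose 3.39-fold, from 8.58, 8.52 and 13.5 CPM to 28.5, 31.7 and 43.8 CPM (edgeR adjusted p = 0.000461). Rb1 fell 1.46-fold from 53.9 ± 2.61 to 37.1 ± 1.23 CPM (SD, n = 3, edgeR adjusted p = 0.000801). It lies on chromosome 14 with a local median of -0.47, and with that removed its log2 fold change was -0.07 (edgeR adjusted p = 0.512).

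Tfdp2, a dimer partner of E2F proteins, fell 1.49-fold (edgeR adjusted p = 0.000769). E2f6, a repressor of the family that does not bind RB proteins, rose 1.29-fold, on chromosome 12, and lost its call with the local median of 0.25 removed (edgeR adjusted p = 0.276), while Lin9, a subunit of the complex that regulates cell cycle genes, rose 1.28-fold. Cdk2 and Cdc25a, the kinase of the E cyclins and its activating phosphatase, had 1.05-fold and 1.02-fold (edgeR adjusted p = 0.654 and 0.856). The D cyclin gene Ccnd1 was nearly silent in both lines, at 0.477 ± 0.0451 and 0.478 ± 0.176 CPM (SD, n = 3). Without MOSE-NEO library 3, MOSE-PAX8 library 1 or MOSE-PAX8 library 3 the count of risers in this list was 4, and with the local medians removed the count of falls was 3.

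Histone genes of the Hist1 to Hist4 clusters, many of whose mRNAs Slbp binds, had larger folds at low levels. The summed level of all 68 genes was 19, 18.6 and 17.2 CPM in MOSE-NEO and 45, 52.7 and 48.1 CPM in MOSE-PAX8. Only 12 passed the filter on low counts, and several did so through MOSE-PAX8 alone, so the count of 11 that rose describes the filter as well as the genes. Those with a mean of at least 1 CPM over the 6 libraries were Hist1h2bc, Hist1h1c, Hist3h2a, Hist2h2be and Hist2h3c1, named after their values were seen. All 5 rose, but the mean covers both lines, and Hist2h3c1 was under 1 CPM in each MOSE-NEO library and passed through MOSE-PAX8. Hist1h2bc rose 3.07-fold, from 3.3, 4.52 and 3.98 CPM to 12.2, 13.1 and 10.8 CPM (edgeR adjusted p = 0.000116). Hist1h1c and Hist3h2a each rose 2.3-fold, and no library of one line reached the other. Copies of these genes are nearly alike and how RNA was selected for the libraries is not given, so single genes are uncertain.

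Among genes of mitosis, which follows S phase, 13 of 30 tested rose (43.3%) and 1 fell (3.33%), against 17.9% and 16.1% of all genes. Their median log2 fold change was 0.29 beside 0.30 for the members, and a difference between these lists was not tested. Ndc80, a kinetochore protein, Prc1, which bundles spindle microtubules, and the checkpoint gene Mad2l1 rose 1.36-fold, 1.43-fold and 1.32-fold. Prc1 lies on chromosome 7, where the local median was 0.25 beside its own log2 fold change of 0.52. Ccnb2, a mitotic cyclin, fell 1.31-fold (edgeR adjusted p = 0.019) and lost its call without MOSE-NEO library 2 (0.0505) or MOSE-PAX8 library 3 (0.0652). The count of 13 was 7 without MOSE-NEO library 3 and 5 without MOSE-PAX8 library 3. It was also 5 when MOSE-NEO library 1 and MOSE-PAX8 library 2 were dropped together.

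**Figure D5:**
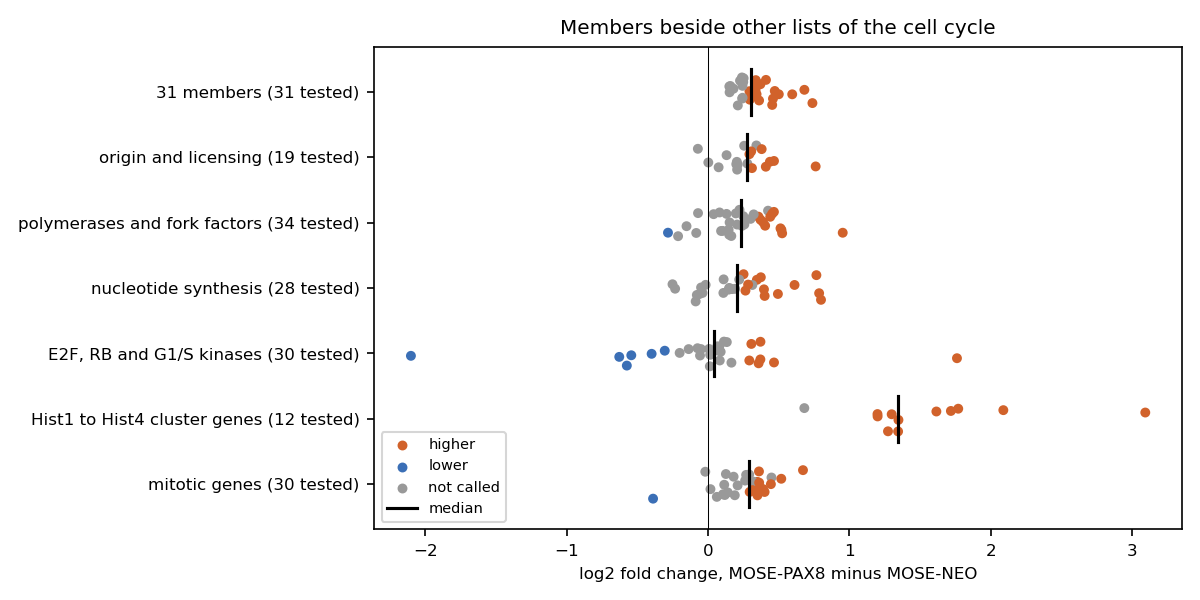
Log2 fold change of MOSE-PAX8 over MOSE-NEO for each tested gene of the members and of 6 related lists, with called genes in orange (higher) or blue (lower), the others in grey, and a black bar at each median. The members and the mitotic genes have medians of 0.30 and 0.29, and the E2F, RB and G1/S list spreads from -2.10 (Cdkn1a) to 1.76 (Myc).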

How the data were processed

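The authors deposited unnormalized counts for 25006 Ensembl identifiers in each of the 6 libraries. Cutadapt 1.13, STAR, HTSeq 0.6.1p1, DESeq2 and the mm10 build are named, per the submitters' processing notes. Symbols, positions and exon lengths came from GENCODE M21, which matched 24991 identifiers. MOSE-PAX8 was compared with MOSE-NEO on these counts by edgeR 4.0.16 (quasi-likelihood, TMM factors, filterByExpr) in R 4.3.3, with p-values adjusted by Benjamini-Hochberg over 12313 genes. The script was tested on simulated data with planted folds of 1.5 or more. Since 28 members had a fold of 1.5 or less, that test says little about changes of their size. Of all genes, 4178 were called, and 5290 had an unadjusted p below 0.05. Within a line, the variance between any pair of libraries, averaged over genes, was 13.3 or more times that of counting alone. Each was used as 1 library, but this ratio does not show that they were separate cultures. DESeq2 1.42.0, limma 3.58.1 (voom), other factors and filters, and fits with libraries left out were the alternatives. Members and lists were chosen with earlier results of these data known. Named are all members, up to 3 called genes per direction of each list with the smallest adjusted p, and a fixed set of regulators. Some genes of the lists are counted but not reported here by name. Other genes were named after their values were seen. Local medians use a window of 101 tested genes that includes the gene itself, which is then left out of the median.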

Additional observations from a re-analysis of the deposited data

How the results depend on the processing

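The 31 members stayed above 0 in each of the 16 alternative fits except with the local chromosome median removed, where Rrm1 and Rrm2 did not. The members called higher numbered 18, and 6 to 22 with 1 library left out, 11 without the pair of lincRNA-rich libraries and 0 against a fold of 1.5. DESeq2 called 19, limma-voom 20 and upper-quartile factors 23, each with all 18 among them. The members' median was 0.30, and 0.26 to 0.36 with 1 library left out. Over all genes, 2199 were called higher and 1979 lower, or 700 and 370 against a fold of 1.5, and 1545 to 2065 and 1314 (without MOSE-PAX8 library 3) to 1843 with 1 library left out.

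Against a fold of 1.5 the risers numbered 0 in origin and licensing, 1 in polymerases and fork factors, 0 in nucleotide synthesis, 1 in E2F, RB and G1/S control, 0 in mitosis and 7 among histones, and the falls 0, 0, 0, 1, 0 and 0. With 1 library left out, risers numbered 6 to 8, 8 to 11, 5 to 12, 4 to 6, 5 to 18 and 9 to 13 in the same order, and falls 0 to 0, 0 to 2, 0 to 0, 6 to 6, 0 to 1 and 0 to 0. Dropping MOSE-NEO library 1 and MOSE-PAX8 library 2 together, 6 polymerase and fork genes and 5 mitotic genes rose. With the local median removed, 0 polymerase and fork genes and 3 E2F, RB and G1/S genes fell, and Supt16 turned from -0.28 to 0.15. A filter of 1 CPM in 3 libraries left 5 histone risers. The shorter E2F words matched 70.4% of members. Beyond what the construction of an alternative shows (fewer libraries, fewer genes), the cause was not tested.

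The labels do not say whether the replicate numbers pair the libraries, and the main fit used no pairing. Deviations of same-numbered libraries correlated at -0.49, 0.06 and 0.48. The lincRNA-rich MOSE-NEO 1 and MOSE-PAX8 2 correlated at 0.67, and MOSE-NEO 3 and MOSE-PAX8 2 at -0.71. Deviations were taken from the mean of each line, so these values depend on each other. With the replicate block 16 members were called, without Mcm10 and Pola1 (adjusted p = 0.0699 and 0.0523). Of 62 single genes followed through the settings, 47 changed their call in at least 1 setting. These settings include the test against a fold of 1.5, a stricter question, which ended the calls of all 18 members. Fen1, Chaf1a, Gins2, Prim1 and E2f7 changed in that setting alone. Groups of 3 libraries limit what can be called: rises of about 1.2-fold sat on both sides of the threshold.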
